A study of Mus musculus with 12 samples.

Results

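Ceramide and barrier lipid genes were followed across 12 ear skin libraries as a list of 32 genes chosen by function, from the first step of sphingolipid synthesis to the lipases of the outer epidermis. All 32 were present among the 23234 gene symbols of the expression tables, none was at 0 in any library, and all 32 were among the 14059 genes that reached 1 FPKM (a level corrected for transcript length and for the number of mapped fragments) in at least 3 libraries. RNA was sequenced from ear skin of mice aged 8 to 12 weeks in 4 groups of 3 libraries. VDRcKO_Oxarol ears were of genotype K5-Cre;VDR f/f, where the keratin 5 promoter drives Cre recombinase, which acts on a floxed vitamin D receptor gene in basal keratinocytes and their descendants, while other skin cells keep the receptor. They received 100 mg of Oxarol, an ointment with 2.5 µg of the vitamin D3 analogue maxacalcitol, as did the WT_Oxarol ears of wild type C57BL/6J mice. WT_PBS ears of wild type mice received PBS, and WT_untreated ears of wild type mice nothing. The 3 treated groups were sampled 1 day after application. No PBS or untreated arm of the K5-Cre;VDR f/f genotype was analysed here, and PBS is not the base of the ointment.

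The skin barrier against water loss is a stack of lipid layers between the dead cells of the cornified layer, made of ceramides, cholesterol and free fatty acids. Keratinocytes of the granular layer build ceramides from serine and fatty acids, extend some acyl chains to unusual length, hydroxylate their far end and link linoleic acid to it. They store the precursors as glucosylceramide and sphingomyelin in lamellar bodies, and lysosomal and secreted enzymes turn these into ceramide once they are released. Ceramidases, sphingosine kinase and sphingosine phosphate lyase break ceramide down again.

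The libraries were first checked against their labels. Vdr was at 23.6, 25.0 and 18.0 FPKM in VDRcKO_Oxarol, against 7.87, 6.68 and 7.05 FPKM in WT_Oxarol, which goes against the genotype label, although a value over the whole gene does not check the deleted part. Cyp24a1, the vitamin D degrading enzyme induced through the receptor, was at 0, 0.271 and 0.175 FPKM in the libraries labelled VDRcKO_Oxarol, against 66.2, 599 and 458 FPKM in WT_Oxarol. Keratinocyte markers of skin were abundant in every library, with summed suprabasal markers at 12670 to 21110 FPKM. WT_PBS replicate 3 listed Krt2 and Scd1 at 0, which lowered its granular layer and sebaceous sums. WT_untreated replicate 3 stood apart with summed adipocyte markers of 8122 FPKM, against at most 2894 FPKM in the other libraries, and summed striated muscle markers of 12330 FPKM, against at most 5992 FPKM. Library codes fell into 2 runs, and all 3 VDRcKO_Oxarol libraries lay in the second run with replicate 3 of each wild type group. The labels do not call these runs batches. Read numbers inferred from the steps of low values, uncertain by a factor of 2, were 0.0404 to 0.0567 of those of WT_PBS replicate 3 in VDRcKO_Oxarol and 0.0647 to 0.212 in WT_Oxarol.

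The list covered a wide range of levels. Averaged over the 12 libraries, 7 members stood at 100 FPKM or more, 12 between 30 and 100, 9 between 10 and 30, and 4 below 10 FPKM. The highest was Elovl4, the elongase that makes ultra-long acyl chains, at 556 FPKM. Psap, prosaposin, the precursor of the saposins that help lysosomal enzymes reach sphingolipids, followed at 351 FPKM. Fa2h, which puts a hydroxyl group on the acyl chain of ceramides, averaged 324 FPKM. The elongases Elovl3, at 232 FPKM, and Elovl1, at 222 FPKM, came next, so that 3 of the 5 most abundant members were elongases. At the low end stood Asah2, the neutral ceramidase, at 2.99 FPKM, and Ugcg, the glucosylceramide synthase, at 5.81 FPKM.

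**Figure D1:**
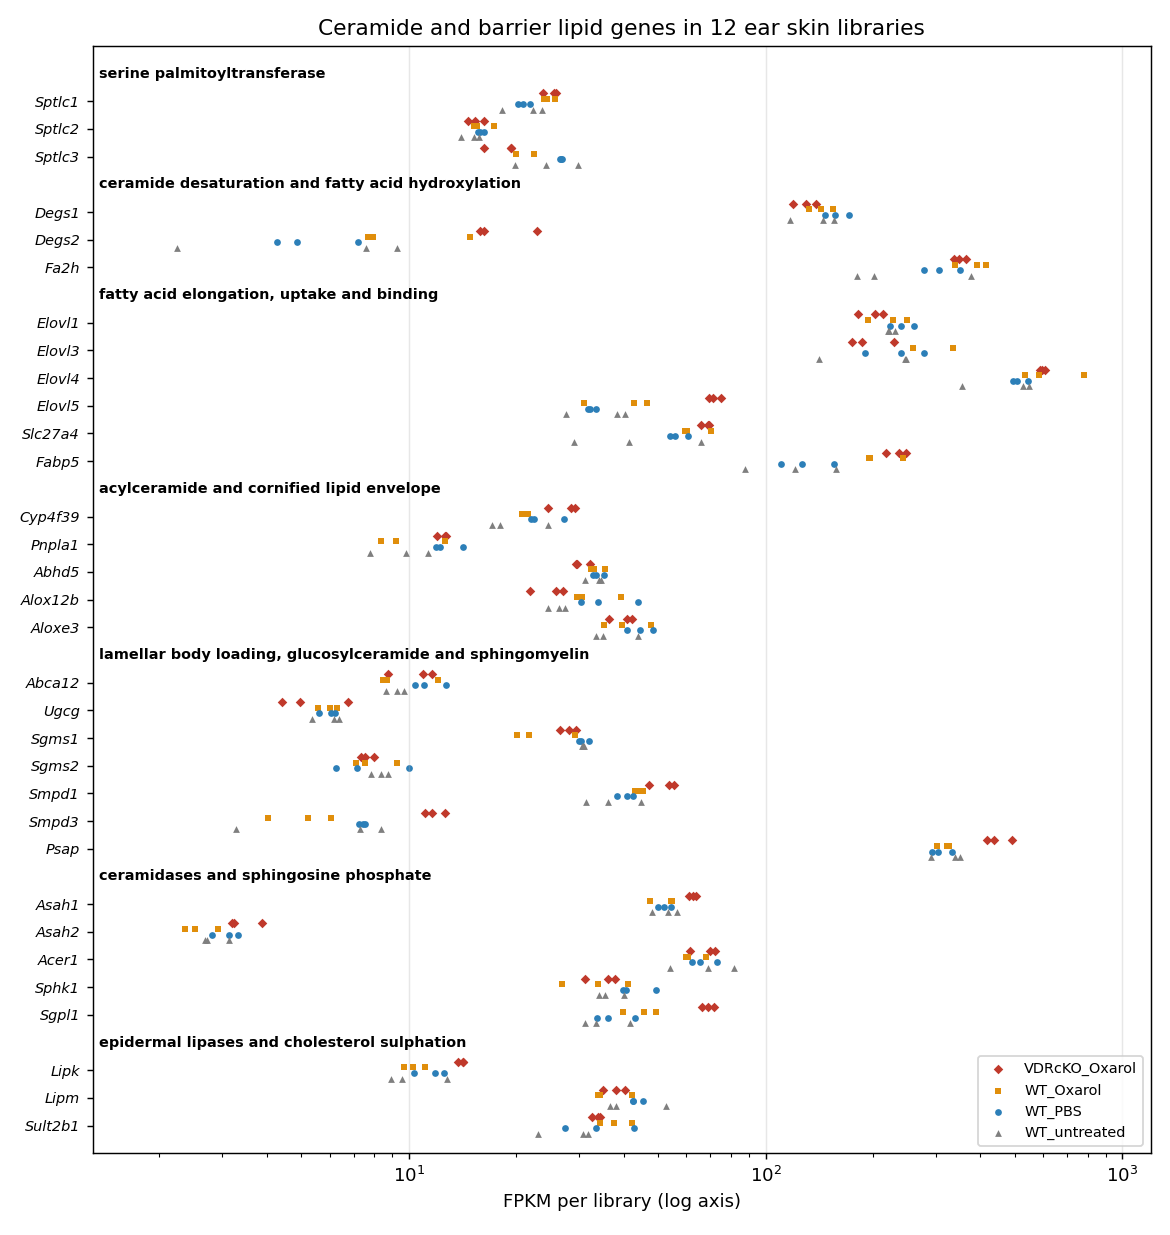
FPKM of each of the 32 genes in each of the 12 libraries on a log axis, grouped by role, with 1 symbol per library and a colour and shape per group. Elovl5, Psap, Sgpl1, Smpd3, Degs2, Asah1, Smpd1 and Lipk have all 3 VDRcKO_Oxarol diamonds to the right of all other symbols in their row, and Sptlc3 has them to the left. The share of all genes separated in this way was not counted. Degs2, Asah1, Smpd1, Lipk and Sptlc3 did not pass against WT_Oxarol at an adjusted p under 0.05 (limma).

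Members differed in how much they varied. Degs2, the enzyme that makes phytoceramide by hydroxylation, had the widest span, 10.2-fold between its lowest library at 2.24 FPKM (WT_untreated replicate 3) and its highest at 22.9 FPKM (VDRcKO_Oxarol replicate 1). Smpd3 spanned 3.86-fold, Fabp5 2.82-fold and Elovl5 2.73-fold. Abhd5, an activator of lipid hydrolases, spanned only 1.2-fold and Sptlc2 1.23-fold. Summed over the members, the level was 3025, 2928 and 2884 FPKM in VDRcKO_Oxarol, 2743, 3114 and 2811 in WT_Oxarol, 2554, 2801 and 2471 in WT_PBS, and 2453, 2696 and 2060 in WT_untreated. In this sum the VDRcKO_Oxarol libraries lay above those of WT_PBS and WT_untreated, the WT_Oxarol libraries lay above those of WT_untreated, and the other pairs of groups overlapped. WT_untreated replicate 3 held the lowest value of 12 members and replicate 1 that of 7 members. Fa2h was at 181, 376 and 202 FPKM in the 3 WT_untreated libraries. Replicates 1 and 3 lay below every library of the other groups, which ran from 278 to 414 FPKM, and replicate 2 lay within that range.

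Ear skin was sequenced in bulk, so fewer cells of a type and less RNA per cell cannot be told apart in any of the comparisons. Where groups are said not to overlap, this only describes the libraries. The share of all genes separated in this way was not counted in any comparison. The first comparison set VDRcKO_Oxarol against WT_Oxarol, that is, the genotype under the same ointment. In VDRcKO_Oxarol, 4 of 32 members (12.5%) were higher and 0 were lower at an adjusted p under 0.05 (limma, Benjamini-Hochberg over all genes). They were Elovl5, Smpd3, Psap and Sgpl1, with 1.41-fold to 2.12-fold differences. Over all tested genes 13.1% passed, 8.71% higher and 4.43% lower, so the share of members that changed was near that of all genes. The median log2 difference was 0.078 over the members and 0.079 over all genes. At an unadjusted p under 0.05 there were 10 of 32 members and 4531 of all 14059 tested genes (limma). The count of 4 became 2 without WT_Oxarol replicate 2, without VDRcKO_Oxarol replicate 1 or without VDRcKO_Oxarol replicate 2, became 6 without WT_untreated replicate 1, and became 1, Elovl5, with the code run as a term. The share of all genes that passed moved as well, to 2.29% without WT_Oxarol replicate 2, 3.57% without VDRcKO_Oxarol replicate 1, 3.58% without VDRcKO_Oxarol replicate 2, 24.4% without WT_untreated replicate 1 and 2.01% with the code run as a term.

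Among the fatty acid genes, Elovl5, the elongase of polyunsaturated chains, rose in VDRcKO_Oxarol. Elovl5 was at 75.2, 69.3 and 71.2 FPKM in VDRcKO_Oxarol, against 31.1, 46.6 and 42.8 FPKM in WT_Oxarol. WT_PBS had 33.6, 31.7 and 32.3 FPKM and WT_untreated 38.4, 40.4 and 27.6 FPKM. All 3 VDRcKO_Oxarol libraries were above all 9 wild type libraries. The log2 difference from WT_Oxarol was 0.84 ± 0.16 (SE, n = 3 each, limma adjusted p = 0.014), and Elovl5 passed the test under all 22 alternative settings in this comparison. In the second code run alone, the log2 difference was 0.73 (3 libraries against 1, with no test).

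In the lamellar body and sphingomyelin group, 2 of 7 members rose. Smpd3, the neutral sphingomyelinase that splits sphingomyelin into ceramide and phosphocholine, was at 11.6, 12.7 and 11.1 FPKM in VDRcKO_Oxarol, against 6.05, 4.02 and 5.22 FPKM in WT_Oxarol. The other libraries had 7.53, 7.44 and 7.25 FPKM in WT_PBS and 3.28, 7.31 and 8.37 FPKM in WT_untreated. No wild type library reached the lowest VDRcKO_Oxarol value. The log2 difference of Smpd3 from WT_Oxarol was 1.08 ± 0.24 (SE, limma adjusted p = 0.0223), the largest fitted difference of any member in this comparison. The call was lost in 5 of 22 alternative settings, among them the code run as a term (log2 difference 0.93, adjusted p = 0.107), leaving out WT_Oxarol replicate 2, and leaving out any 1 of the VDRcKO_Oxarol libraries.

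Psap was at 490, 418 and 437 FPKM in VDRcKO_Oxarol, against 323, 303 and 326 FPKM in WT_Oxarol. WT_PBS had 304, 292 and 333 FPKM and WT_untreated 292, 340 and 352 FPKM. All 9 wild type libraries were below the lowest VDRcKO_Oxarol library, and the wild type groups overlapped one another. The log2 difference from WT_Oxarol was 0.50 ± 0.10 (SE, limma adjusted p = 0.0159). This call of Psap was lost in 4 of 22 settings: with quantile normalization (adjusted p = 0.0592), with the code run as a term (adjusted p = 0.0773), without WT_Oxarol replicate 2 and without VDRcKO_Oxarol replicate 1.

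In the ceramide breakdown group, Sgpl1, the lyase that cleaves sphingosine phosphate irreversibly, rose. Sgpl1 was at 66.6, 71.6 and 69.2 FPKM in VDRcKO_Oxarol, against 39.95, 49.2 and 45.6 FPKM in WT_Oxarol. WT_PBS had 33.7, 36.3 and 43.1 FPKM and WT_untreated 31.2, 41.6 and 33.4 FPKM. Again all VDRcKO_Oxarol libraries were above every wild type library. The log2 difference from WT_Oxarol was 0.61 ± 0.13 (SE, limma adjusted p = 0.0167). It was lost with the code run as a term (log2 difference 0.56, adjusted p = 0.0793) and without VDRcKO_Oxarol replicate 2. Within the second code run, the log2 differences from WT_Oxarol were 1.04 for Smpd3, 0.46 for Psap and 0.59 for Sgpl1 (3 libraries against 1, with no test).

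**Figure D2:**
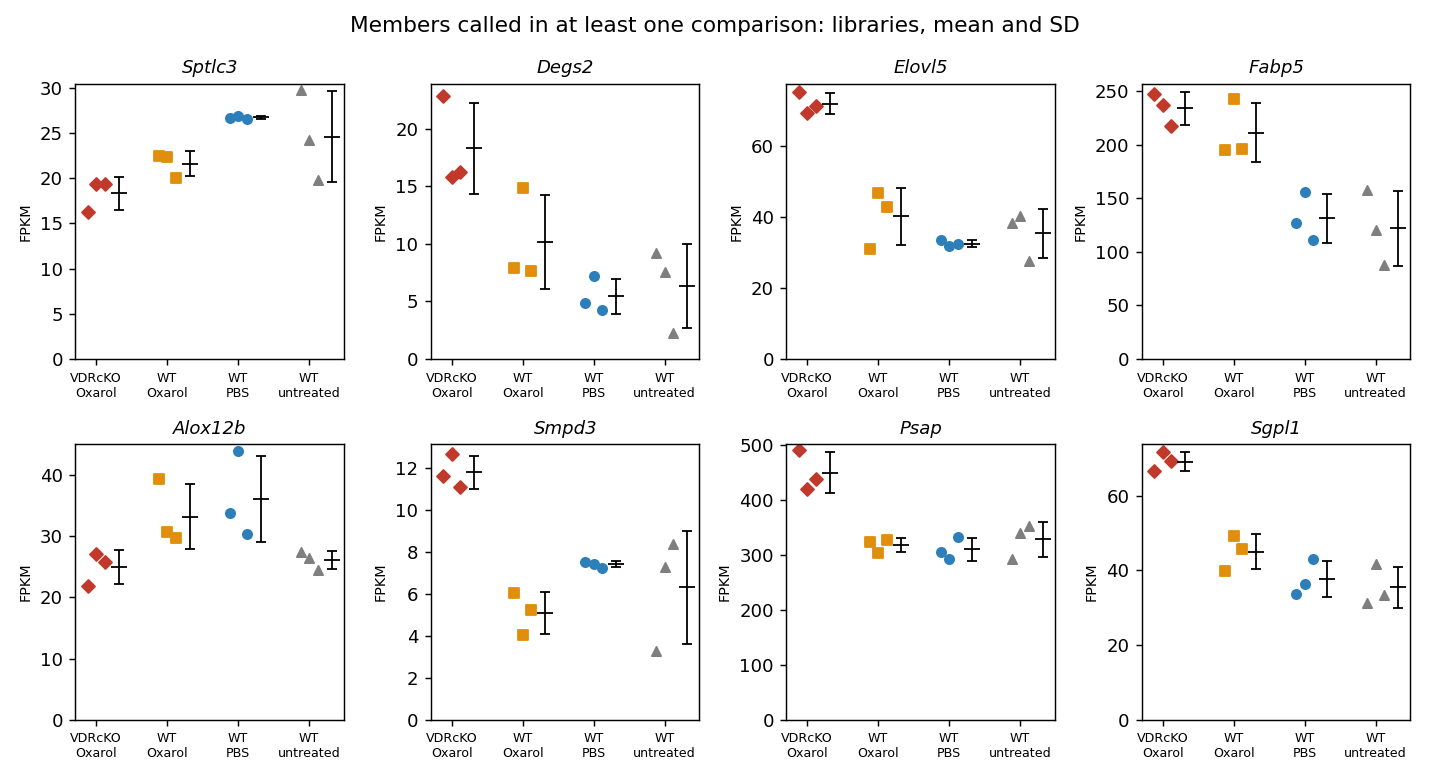
FPKM of the 8 members that passed the test in at least 1 comparison, from 0, with 1 symbol per library, the group mean as a short bar and the SD (n = 3) as whiskers. Elovl5, Smpd3, Psap and Sgpl1 are highest in VDRcKO_Oxarol, Sptlc3 is lowest there, and Fabp5 is high in both ointment groups.

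Start regions are shown for Elovl5, Psap and Sgpl1, members that rose against WT_Oxarol, since the receptor that the genotype label names is a transcription factor. No start region was available for Smpd3, which also rose. Sequences were taken from RefSeq on GRCm38.p6, a later build than the mm9 of the expression tables, as the 250 bases before the gene's start, written 5′ to 3′ on the gene's strand. Capitals mark matches on either strand to the nuclear receptor hexamers (AGGTCA, or GGGTCA, or AGTTCA, or GGTTCA), to the AP-1 motif TGACTCA or TGAGTCA, or to CACGTG, the E-box read by MYC and USF factors. Psap has 2 listed starts, and the first is shown; the window of the second, chr10:60284211-60284460, plus strand, held none of these motifs.
Elovl5, chr9:77917115-77917364, plus strand: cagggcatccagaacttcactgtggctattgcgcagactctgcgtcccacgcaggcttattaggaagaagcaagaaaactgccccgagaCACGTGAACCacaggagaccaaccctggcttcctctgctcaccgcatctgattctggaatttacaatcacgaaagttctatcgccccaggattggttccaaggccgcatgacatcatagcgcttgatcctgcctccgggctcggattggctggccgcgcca
Psap, chr10:60277378-60277627, plus strand: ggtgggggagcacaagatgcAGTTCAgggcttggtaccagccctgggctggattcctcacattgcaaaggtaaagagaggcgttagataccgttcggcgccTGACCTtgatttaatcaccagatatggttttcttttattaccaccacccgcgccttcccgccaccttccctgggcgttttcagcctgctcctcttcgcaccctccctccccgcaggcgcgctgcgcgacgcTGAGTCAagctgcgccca
Sgpl1, chr10:61147685-61147934, minus strand: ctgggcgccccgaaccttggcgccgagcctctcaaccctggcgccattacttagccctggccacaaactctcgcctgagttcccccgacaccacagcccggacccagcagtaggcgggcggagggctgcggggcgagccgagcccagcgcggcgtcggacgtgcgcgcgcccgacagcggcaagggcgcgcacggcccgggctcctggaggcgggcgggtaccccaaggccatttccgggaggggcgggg

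In the Elovl5 window, CACGTG began 161 bases before the start and overlapped a hexamer match that began 157 bases before it. The first Psap window held hexamer matches 230 and 149 bases before the start and an AP-1 match 18 bases before it. The Sgpl1 window held none of these letters and was 74.8% G and C, against 55.6% for Elovl5, 58.8% for the first Psap window and 41.6% for the second. Promoters were matched for 25 of the 32 members, with 40 windows, whose median G and C content was 58.0%, against 52.4% for all windows. For 33 of the 40 windows, the bases after the start were found near the beginning of a GENCODE transcript of the same gene. The counts below use all 40 windows. A hexamer was present in 20 of the 40 windows, from 14 members, and in 38.6% of the 32851 windows of the whole table. A pair of hexamers in the same direction with 3 bases between them, the arrangement that the vitamin D receptor and its RXR partner are known to bind, was in 0 of the 40 windows and in 0.0396% of all windows. The AP-1 motif was in 8 windows, from 6 members, against 4.46% of all windows, and CACGTG in 5 windows, from 4 members, against 6.02%. Windows of 1 gene can overlap and count the same site again. Sphk1 had 5 listed starts, of which starts 2 and 3 shared 1 AP-1 match. Its starts 4 and 5 shared 1 CACGTG and 1 hexamer match. Windows were therefore not independent, and no excess over all windows was tested. These matches describe letters and not occupied sites.

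The members that did not pass in VDRcKO_Oxarol against WT_Oxarol are described by role. Of serine palmitoyltransferase, the enzyme that starts sphingolipid synthesis, Sptlc1 had a log2 difference of 0.018 ± 0.094 (SE) and Sptlc2 of -0.055 ± 0.078. For Degs1, the desaturase that completes ceramide, the log2 difference was -0.14 ± 0.12 (SE), and for Fa2h -0.12 ± 0.22. Elovl3, an elongase of sebaceous and hair lipids, was at 229, 175 and 186 FPKM in VDRcKO_Oxarol, against 258, 335 and 259 FPKM in WT_Oxarol, without overlap. Its log2 difference of -0.53 ± 0.23 (SE) did not pass (limma adjusted p = 0.137). Elovl1, which makes very long saturated chains, had a log2 difference of -0.16 ± 0.10. In the acylceramide group, Cyp4f39, the mouse omega-hydroxylase, had a log2 difference of 0.35 ± 0.13 (adjusted p = 0.105). Pnpla1, which transfers linoleic acid to omega-hydroxyceramide, had 0.30 ± 0.15 (adjusted p = 0.204).

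The ceramidases Asah1 and Asah2, the lipase Lipk and the lipoxygenase Alox12b had adjusted p values between 0.05 and 0.1 in this comparison. Alox12b was lower in VDRcKO_Oxarol, with a log2 difference of -0.39 ± 0.15 (SE, limma adjusted p = 0.0958), and the others were higher. Asah1, the acid ceramidase, was at 62.7, 61.1 and 64.0 FPKM in VDRcKO_Oxarol, against 47.4, 54.7 and 54.5 FPKM in WT_Oxarol. The groups did not overlap, and the log2 difference was 0.26 ± 0.083 (SE, limma adjusted p = 0.0615). Asah2 had a log2 difference of 0.30 ± 0.10 (adjusted p = 0.0801). Lipk, a lipase of the granular layer, was at 13.8, 14.2 and 14.2 FPKM in VDRcKO_Oxarol, against 11.1, 10.3 and 9.68 FPKM in WT_Oxarol. Its groups did not overlap either, and the log2 difference was 0.41 ± 0.12 (SE, limma adjusted p = 0.0533). How many of all genes lacked overlap was not counted, so it adds nothing to the test. Farther from the threshold, Smpd1, the acid sphingomyelinase, had a log2 difference of 0.23 ± 0.12 (adjusted p = 0.206), Sgms1, a sphingomyelin synthase, 0.25 ± 0.12 (adjusted p = 0.164), and Lipm, another epidermal lipase, 0.042 ± 0.14. For 28 of 32 members, the 95% interval of the log2 difference lay within ±1, and the exceptions were Degs2, Elovl3, Elovl5 and Smpd3.

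**Figure D3:**
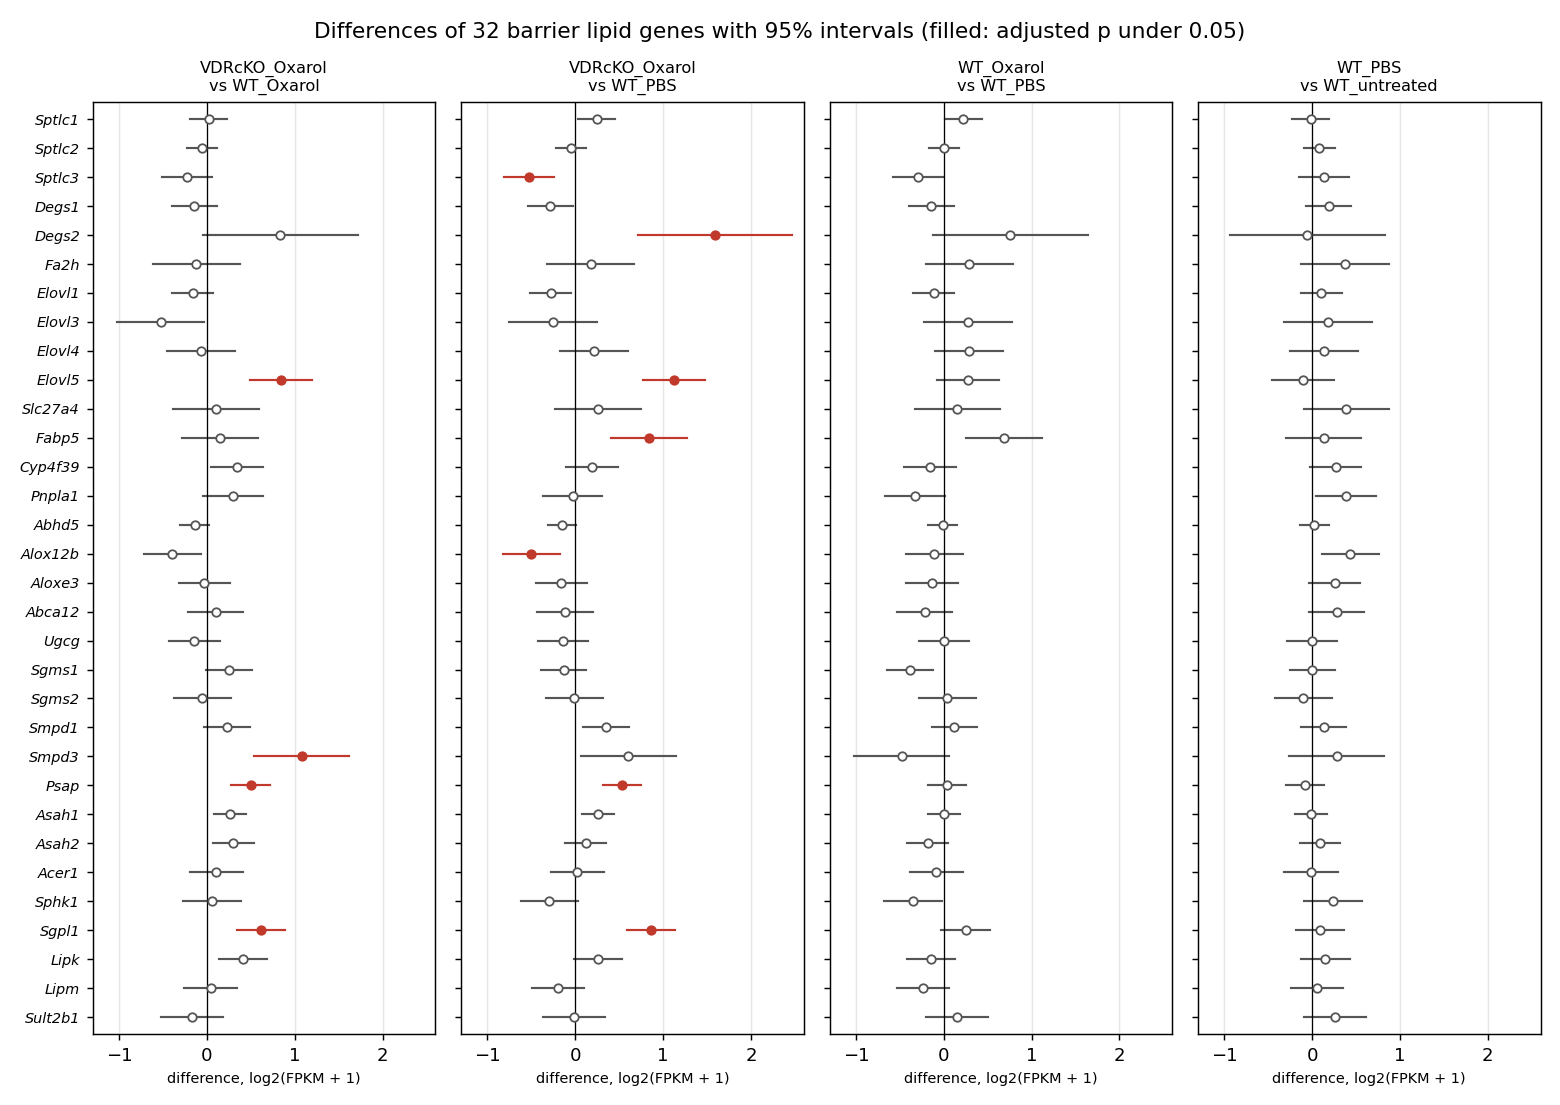
Log2(FPKM + 1) differences of the 32 genes in 4 comparisons, with 95% intervals from the limma fit, and filled symbols for an adjusted p under 0.05. There are 4 filled symbols for VDRcKO_Oxarol against WT_Oxarol, 7 for VDRcKO_Oxarol against WT_PBS, and none in the other panels.

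The balance of higher and lower genes depended on scaling. The median log2 difference of all genes between VDRcKO_Oxarol and WT_Oxarol was 0.079 on the deposited scale and -0.037 after quantile normalization. The split of all called genes turned with it, with 1225 higher and 623 lower on the deposited scale, 820 higher and 1292 lower after quantile normalization, and 826 higher and 1151 lower after median-of-ratios scaling. Relative to the median of all genes, the log2 differences were 0.77 for Elovl5, 1.00 for Smpd3, 0.42 for Psap and 0.54 for Sgpl1. After quantile normalization the log2 differences themselves were 0.82 for Elovl5, 0.93 for Smpd3, 0.47 for Psap and 0.60 for Sgpl1.

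Markers of other cell types also differed between these groups, and their part in the member results was not tested. Summed macrophage markers were at 1155 to 1464 FPKM in VDRcKO_Oxarol, against 702 to 899 FPKM in WT_Oxarol, and 8 of 12 of these markers rose. Fibroblast markers summed to 3137 to 3846 FPKM in VDRcKO_Oxarol and 2046 to 2697 FPKM in WT_Oxarol, with 5 of 8 higher. Neither list had a marker at 0 in any library. Cartilage markers summed to 158 to 167 FPKM in VDRcKO_Oxarol and 70.3 to 107 FPKM in WT_Oxarol, with 5 of 7 tested markers higher and Matn1 at 0 in all 12 libraries. Hair follicle markers summed to 419 to 1448 FPKM in VDRcKO_Oxarol and 149 to 300 FPKM in WT_Oxarol, with 13 of 18 tested markers higher. In that list, Krt71, Krt73, Krt31, Krt33a, Krt34, Krt35, Krt81, Krt85 and Dsg4 were at 0 in at least 1 library. Endothelial markers summed to 42.1 to 43.2 FPKM in VDRcKO_Oxarol and 26.8 to 31.0 FPKM in WT_Oxarol, without overlap. Of these markers 1 of 7 passed as higher and 5 had an unadjusted p under 0.05 (limma). All 7 were above 0, with a median log2 difference of 0.42.

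The epidermal lists, from the cells that make most barrier lipid, overlapped between the 2 ointment groups. Granular layer markers summed to 5063 to 6021 FPKM in VDRcKO_Oxarol and 5413 to 7277 FPKM in WT_Oxarol, with 3 of 13 tested markers higher and 0 lower. Of these 13 granular markers, 6 were above 0, and their median log2 difference was -0.05. Basal keratinocyte markers summed to 3015 to 3264 FPKM in VDRcKO_Oxarol and 2840 to 4039 FPKM in WT_Oxarol, with 0 of 8 passing at an adjusted p under 0.05 and 2 at an unadjusted p under 0.05 (limma). Suprabasal markers had 15170 to 17100 FPKM in VDRcKO_Oxarol and 17040 to 19550 FPKM in WT_Oxarol, with 1 of 7 higher, 3 at an unadjusted p under 0.05, 2 above 0 and a median log2 difference of -0.21. Sebaceous gland markers summed to 3041 to 3265 FPKM in VDRcKO_Oxarol and 3181 to 4361 FPKM in WT_Oxarol, with 1 of 15 higher and 2 lower. The sebaceous list shares Scd1, Far2, Elovl6 and Fads2 with the other pathway genes given below, and Elovl6 is among the 2 lower. Adipocyte markers (1996 to 2894 FPKM in VDRcKO_Oxarol, 1481 to 2184 FPKM in WT_Oxarol) and striated muscle markers (3992 to 4904 FPKM in VDRcKO_Oxarol, 2846 to 4841 FPKM in WT_Oxarol) had 0 called, with 2 of 10 and 1 of 8 at an unadjusted p under 0.05 (limma).

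**Figure D4:**
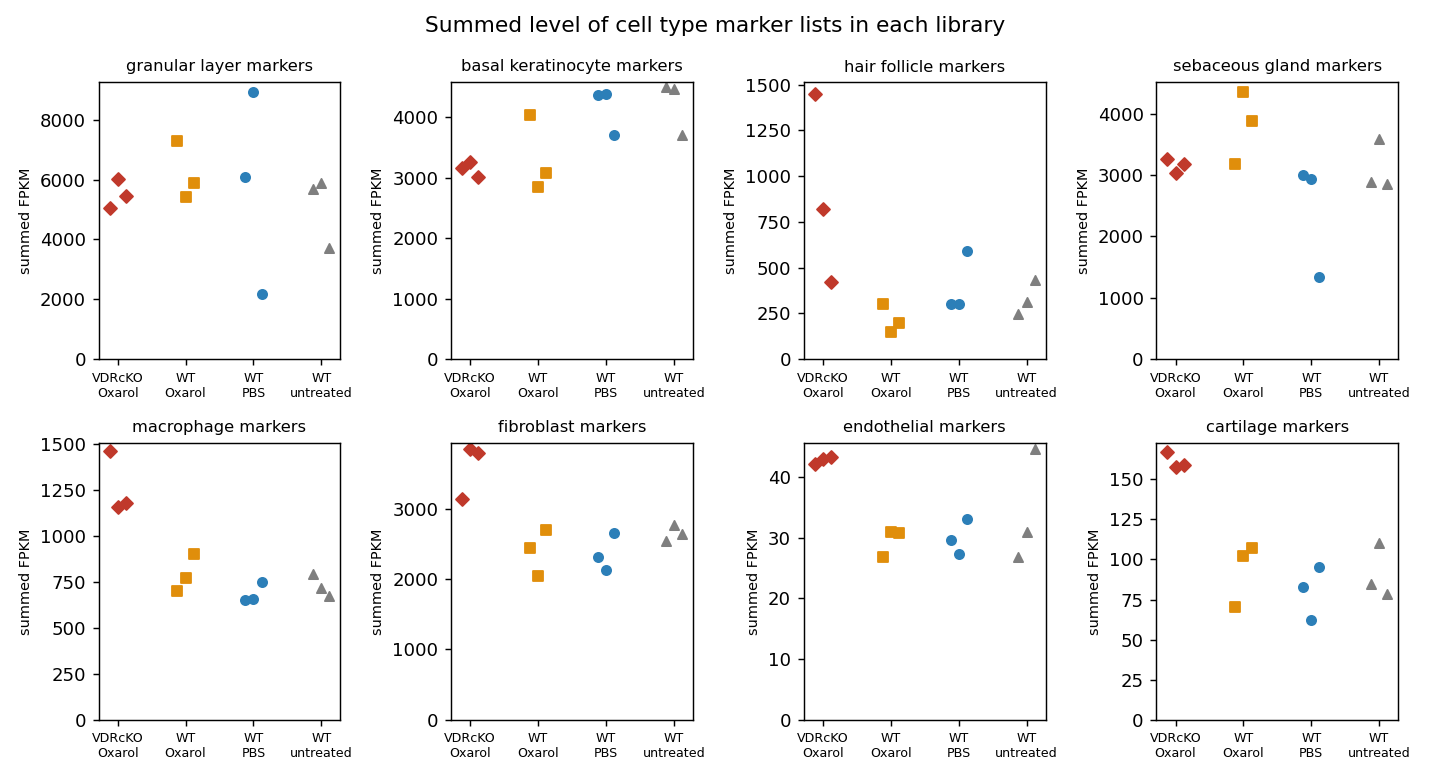
Summed FPKM of 8 cell type marker lists in each library, from 0, with 1 symbol per library. Macrophage, fibroblast, endothelial, hair follicle and cartilage lists are higher in all 3 VDRcKO_Oxarol libraries than in any WT_Oxarol library. The granular and basal keratinocyte lists overlap.

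Genes of the same pathways outside the list were read from the same fit, 25 tested of 28 listed sphingolipid enzymes and 28 tested of 31 listed acyl chain and barrier lipid genes. Their calls were not followed in the alternative settings used for the members. Between VDRcKO_Oxarol and WT_Oxarol, 9 of the 53 tested were higher and 2 lower (20.8%, against 13.1% of all genes), with a median log2 difference of 0.061. Elovl6, which lengthens long-chain saturated and monounsaturated chains, fell to 34.1, 49.0 and 40.6 FPKM in VDRcKO_Oxarol, against 65.1, 75.7 and 65.9 FPKM in WT_Oxarol. The groups did not overlap, and the log2 difference was -0.74 ± 0.12 (SE, limma adjusted p = 0.00765). Lass3, the older symbol of Cers3, the ceramide synthase for ultra-long chains, fell to 28.3, 27.0 and 30.2 FPKM in VDRcKO_Oxarol, against 43.8, 38.2 and 40.5 FPKM in WT_Oxarol, again without overlap. Its log2 difference was -0.50 ± 0.11 (SE, adjusted p = 0.0211). Lass2 (Cers2), the ceramide synthase for very long chains, moved the other way, at 57.9, 50.9 and 49.4 FPKM in VDRcKO_Oxarol, against 30.3, 38.0 and 41.1 FPKM in WT_Oxarol, a log2 difference of 0.53 ± 0.12 (SE, adjusted p = 0.0249). Log2 differences of the others with the smallest adjusted p were 0.73 ± 0.17 for B4galt6, a lactosylceramide synthase, 0.51 ± 0.12 for Galc, the galactosylceramidase, and 0.77 ± 0.18 for the epidermal lipase Lipn (SE, adjusted p = 0.0234 for B4galt6 and 0.0249 for Galc and Lipn).

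The second comparison set VDRcKO_Oxarol against WT_PBS, which differ in both genotype and ointment. It shares a group with each of the comparisons of VDRcKO_Oxarol with WT_Oxarol and of WT_Oxarol with WT_PBS, so each comparison's own values are given side by side. In VDRcKO_Oxarol, 5 members were higher (Elovl5, Sgpl1, Psap, Degs2 and Fabp5) and 2 lower (Sptlc3 and Alox12b), 21.9% of the 32. Of all tested genes 16.3% passed, 10.8% higher and 5.49% lower. The median log2 difference was 0.005 over the members and 0.086 over all genes. An unadjusted p under 0.05 was found for 13 of 32 members and 4818 of all 14059 tested genes (limma). The count of 7 fell to 3 without WT_PBS replicate 1, VDRcKO_Oxarol replicate 1 or VDRcKO_Oxarol replicate 2, each time Elovl5, Psap and Sgpl1. It was 4 without WT_PBS replicate 2 and 11 without WT_untreated replicate 1. The share of all genes that passed was 3.86% without WT_PBS replicate 1, 4.59% without WT_PBS replicate 2, 6.32% without VDRcKO_Oxarol replicate 1, 6.82% without VDRcKO_Oxarol replicate 2 and 27.6% without WT_untreated replicate 1. After median-of-ratios scaling, 5 members were higher and 5 lower. The median of all genes moved to -0.039 with quantile normalization. Relative to the median on the deposited scale, the log2 differences were 0.78 for Sgpl1, 1.5 for Degs2, -0.61 for Sptlc3 and -0.59 for Alox12b.

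Elovl5, Sgpl1 and Psap, whose library values are given above, had log2 differences from WT_PBS of 1.12 ± 0.16, 0.86 ± 0.13 and 0.53 ± 0.10 (SE, limma adjusted p = 0.00352, 0.00369 and 0.00937). For these genes the VDRcKO_Oxarol libraries lay above all WT_PBS libraries. The calls of Elovl5 and Sgpl1 were kept in all 22 alternative settings, and that of Psap was lost with quantile normalization (adjusted p = 0.063). Smpd3 had a log2 difference from WT_PBS of 0.60 ± 0.24 and did not pass (adjusted p = 0.111). In the second code run alone, the log2 differences from WT_PBS were 1.13 for Elovl5, 0.67 for Sgpl1 and 0.43 for Psap (3 libraries against 1, with no test).

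Degs2 was at 22.9, 15.8 and 16.2 FPKM in VDRcKO_Oxarol, at 7.91, 14.8 and 7.67 FPKM in WT_Oxarol, at 4.86, 7.20 and 4.28 FPKM in WT_PBS, and at 9.24, 7.61 and 2.24 FPKM in WT_untreated. VDRcKO_Oxarol lay above every other library, though only just above WT_Oxarol replicate 2. The log2 difference was 1.59 ± 0.40 (SE, limma adjusted p = 0.0261) from WT_PBS, and 0.83 ± 0.40 (adjusted p = 0.176) from WT_Oxarol. The call of Degs2 against WT_PBS was lost whenever 1 library of either group was left out, which accounts for 6 of 22 settings, and the highest adjusted p there was 0.0876. With WT_PBS replicate 3 alone as reference in the second code run, the log2 difference was 1.85, with no test.

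Fabp5, the epidermal fatty acid binding protein, was at 247, 237 and 217 FPKM in VDRcKO_Oxarol, at 195, 243 and 196 FPKM in WT_Oxarol, at 127, 156 and 111 FPKM in WT_PBS, and at 158, 121 and 87.6 FPKM in WT_untreated. The 2 ointment groups overlapped each other and lay above all libraries without ointment. The log2 difference of VDRcKO_Oxarol from WT_PBS was 0.84 ± 0.20 (SE, limma adjusted p = 0.0201), and that from WT_Oxarol 0.15 ± 0.20 (adjusted p = 0.625). The WT_PBS call was lost in 4 of 22 settings, without WT_PBS replicate 1 or 3 and without VDRcKO_Oxarol replicate 1 or 2. In the second code run the log2 difference from WT_PBS was 1.07, with no test.

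Sptlc3, the serine palmitoyltransferase subunit that widens its choice of acyl chains, was at 16.2, 19.4 and 19.4 FPKM in VDRcKO_Oxarol, at 22.4, 22.4 and 20.0 FPKM in WT_Oxarol, at 26.7, 26.9 and 26.6 FPKM in WT_PBS, and at 29.8, 24.2 and 19.8 FPKM in WT_untreated. VDRcKO_Oxarol was lowest, below all 9 wild type libraries, and the WT_PBS libraries were nearly equal. The log2 difference was -0.52 ± 0.13 (SE, limma adjusted p = 0.0248) from WT_PBS and -0.23 ± 0.13 (adjusted p = 0.247) from WT_Oxarol. Leaving out WT_PBS replicate 1 or 2 or VDRcKO_Oxarol replicate 1 or 2 ended the call, as did the code run as a term (log2 difference -0.39, adjusted p = 0.117).

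Alox12b, the lipoxygenase that starts the oxidation of acylceramide linoleate, was at 21.9, 27.1 and 25.9 FPKM in VDRcKO_Oxarol, at 39.3, 30.6 and 29.7 FPKM in WT_Oxarol, at 33.9, 43.9 and 30.4 FPKM in WT_PBS, and at 27.5, 26.4 and 24.5 FPKM in WT_untreated. VDRcKO_Oxarol did not overlap WT_Oxarol or WT_PBS, but overlapped WT_untreated. The log2 difference was -0.50 ± 0.15 (SE, limma adjusted p = 0.0426) from WT_PBS, and -0.39 ± 0.15 (adjusted p = 0.0958) from WT_Oxarol. This call was the least stable, lost in 10 of 22 settings with adjusted p values up to 0.191, the value with the code run as a term. Aloxe3, the lipoxygenase that acts on the product of Alox12b, had a log2 difference from WT_PBS of -0.16 ± 0.13 (adjusted p = 0.418).

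Among the members that passed in no comparison, the group means of Sptlc1 and Sptlc2 were 15.0 to 25.0 FPKM, those of Degs1 129 to 158 FPKM and those of Fa2h 253 to 382 FPKM. Elovl1, Elovl3, Elovl4 and Slc27a4, a fatty acid transporter, ranged from 45.5 to 634 FPKM in their group means. Cyp4f39, Pnpla1, Abhd5 and Aloxe3 ranged from 9.64 to 44.6 FPKM, and Abca12, which loads lamellar bodies with lipid, Ugcg, Sgms1, Sgms2 and Smpd1 from 5.38 to 52.1 FPKM. Group means were 2.6 to 68.3 FPKM for Asah1, Asah2, Acer1, the alkaline ceramidase of the epidermis, and Sphk1, the sphingosine kinase. They were 10.4 to 43.5 FPKM for Lipk, Lipm and Sult2b1, the enzyme that makes cholesterol sulphate. Against WT_PBS, the members nearest to the threshold without passing were Asah1, with a log2 difference in VDRcKO_Oxarol of 0.26 ± 0.083 (SE, limma adjusted p = 0.0535), Smpd1, with 0.35 ± 0.12 (adjusted p = 0.065), and Elovl1, with -0.28 ± 0.10 (adjusted p = 0.0931).

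Of the other pathway genes, 9 of 53 were higher in VDRcKO_Oxarol than in WT_PBS and 3 lower (22.6%, against 16.3% of all genes), with a median log2 difference of 0.12. Lass3 (Cers3) fell to the 28.3, 27.0 and 30.2 FPKM of VDRcKO_Oxarol, against 53.5, 61.8 and 50.0 FPKM in WT_PBS, a log2 difference of -0.92 ± 0.11 (SE, limma adjusted p = 0.00182) without overlap. Elovl6 fell by 0.83 ± 0.12 on the log2 scale (adjusted p = 0.0032), and Acer3, an alkaline ceramidase, by 0.44 ± 0.091 (adjusted p = 0.0137). Acer2, a Golgi ceramidase, rose, with a log2 difference of 0.73 ± 0.14 (adjusted p = 0.00875). Fads2, a desaturase of polyunsaturated fatty acids, rose to 9.29, 8.29 and 8.68 FPKM in VDRcKO_Oxarol, against 4.29, 3.25 and 4.50 FPKM in WT_PBS, a log2 difference of 0.97 ± 0.20 (adjusted p = 0.0131). B4galt6 had a log2 difference of 0.73 ± 0.17 (adjusted p = 0.0189). 

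Marker lists moved in this comparison too, and their part in the member results was not tested. Macrophage markers summed to 1155 to 1464 FPKM in VDRcKO_Oxarol and 650 to 747 FPKM in WT_PBS, with 11 of 12 higher. Fibroblast markers summed to 3137 to 3846 FPKM in VDRcKO_Oxarol and 2135 to 2663 FPKM in WT_PBS, with 5 of 8 higher. Of the cartilage markers, 6 of 7 tested were higher, with sums of 158 to 167 FPKM in VDRcKO_Oxarol and 62.1 to 95.3 FPKM in WT_PBS. Of the hair follicle markers, 8 of 18 tested were higher and 1 lower, and the sums, 419 to 1448 FPKM in VDRcKO_Oxarol and 300.5 to 592 FPKM in WT_PBS, overlapped. Among the epidermal lists, basal keratinocyte markers summed to 3015 to 3264 FPKM in VDRcKO_Oxarol and 3717 to 4393 FPKM in WT_PBS, without overlap. Of these 8 basal markers 1 was called lower, 3 had an unadjusted p under 0.05 (limma) and 2 were above 0. Granular sums (5063 to 6021 FPKM, and 2171 to 8914 in WT_PBS) and suprabasal sums (15170 to 17100 FPKM, and 15710 to 21110 in WT_PBS) overlapped. Called higher were 2 of 13 granular and 1 of 7 suprabasal markers. Of 15 sebaceous markers 2 were higher and 2 lower, with sums of 3041 to 3265 FPKM in VDRcKO_Oxarol and 1336 to 2998 FPKM in WT_PBS. These sebaceous counts include Fads2 as higher and Elovl6 as lower, both counted among the other pathway genes too. Endothelial, adipocyte and striated muscle markers had 0 called (limma), with 4 of 7, 1 of 10 and 2 of 8 at an unadjusted p under 0.05.

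The third comparison, WT_Oxarol against WT_PBS, addressed the ointment in wild type skin. Here 0 of 32 members passed (limma), against 0.306% of all genes. At an unadjusted p under 0.05 were 5 of 32 members and 1047 of all 14059 tested genes. The median log2 difference was -0.006 over the members and 0.007 over all genes, with 16 of 32 members and 7323 of 14059 genes above 0. Cyp24a1, named here for scale, differed between the same libraries, with a log2 difference of 8.02 ± 0.62 (SE, adjusted p = 0.000566). For 29 of 32 members, the 95% interval of the log2 difference lay within ±1, and the exceptions were Degs2, Fabp5 and Smpd3.

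Fabp5 had the smallest adjusted p of the members, and its 195, 243 and 196 FPKM in WT_Oxarol lay above the 127, 156 and 111 FPKM of WT_PBS. Its log2 difference was 0.69 ± 0.20 (SE, 95% interval 0.26 to 1.12, limma adjusted p = 0.262). It was 0.63 in the first code run (2 libraries against 2) and 0.82 in the second (1 against 1). Sgms1 was at 29.3, 21.7 and 20.1 FPKM in WT_Oxarol, against 32.1, 29.98 and 30.4 FPKM in WT_PBS, without overlap. The log2 difference of Sgms1 was -0.39 ± 0.12 (SE, adjusted p = 0.319), -0.29 in the first code run and -0.58 in the second. With array weights both genes passed, and without WT_Oxarol replicate 1 Sgms1 alone passed.

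The other members with an unadjusted p under 0.05 were Sptlc1, with a log2 difference of 0.22 ± 0.094 (adjusted p = 0.62), Sptlc3, with -0.30 ± 0.13 (adjusted p = 0.646), and Sphk1, with -0.35 ± 0.15 (SE, adjusted p = 0.619). Degs2 had a log2 difference of 0.76 ± 0.40 (adjusted p = 0.765) and Elovl5 of 0.28 ± 0.16 (adjusted p = 0.804). All 5 acylceramide genes had log2 differences below 0, between -0.33 for Pnpla1 and -0.012 for Abhd5, and none had an unadjusted p under 0.05. The same 5 genes were all above 0 in WT_PBS against WT_untreated, with log2 differences of 0.025 to 0.434. Both comparisons share the WT_PBS libraries, so these directions are not independent. Of the other pathway genes, 1 of 53 passed, Lipn, which fell to 6.20, 3.50 and 5.91 FPKM in WT_Oxarol, against 12.6, 12.2 and 12.8 FPKM in WT_PBS. The groups of Lipn did not overlap, and the log2 difference was -1.15 ± 0.18 (SE, limma adjusted p = 0.0296). Hair follicle markers summed to 149 to 299.9 FPKM in WT_Oxarol and 300.5 to 592 FPKM in WT_PBS, without overlap. Their median log2 difference was -0.718, with 2 of 18 above 0. Basal and macrophage sums overlapped, with medians of -0.315 (2 of 8 above 0) and 0.231 (12 of 12 above 0). Of all marker lists, only 1 of 7 suprabasal markers passed, as higher (limma). What these lists contribute to the member values was not tested.

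The last comparison, WT_PBS against WT_untreated, addressed the application itself. Again 0 of 32 members passed (limma), against 0.00711% of all genes, which is 1 gene. At an unadjusted p under 0.05 were 2 of 32 members and 1312 of all 14059 tested genes. Alox12b had a log2 difference of 0.43 ± 0.15 (adjusted p = 0.46) and Pnpla1 of 0.38 ± 0.15 (SE, adjusted p = 0.505). Of the 32 log2 differences, 24 were above 0, against 7131 of 14059 for all genes. Their median was 0.13, against 0.003 for all genes. Without WT_untreated replicate 3, which held the lowest value for 12 members, the median was 0.049. Leaving out any other single library of these groups gave member medians of 0.091 to 0.156. All 32 intervals lay within ±1 on the log2 scale. Of the other pathway genes, 0 of 53 passed (limma) and 2 had an unadjusted p under 0.05. Striated muscle markers summed to 4934, 2570 and 4206 FPKM in WT_PBS, against 5992, 5661 and 12330 FPKM in WT_untreated, without overlap. Their median log2 difference was -1.03, with 0 of 8 passing (limma) and 7 of 8 at an unadjusted p under 0.05. Adipocyte markers summed to 2105, 1551 and 2464 FPKM in WT_PBS, against 2374, 2238 and 8122 FPKM in WT_untreated, which overlapped. Their median log2 difference was -0.68, with 0 of 10 above 0, 0 passing and 1 at an unadjusted p under 0.05. The part of these lists in the member values was not tested.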

How the data were processed

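Ear skin RNA of 12 libraries in 4 groups of 3 was made into NEBNext Ultra libraries, per the labels' protocols, and sequenced. The submitters' processing notes name mouse build mm9 and the tools Cufflinks 2.1.1, TopHat2 2.0.8 and Bowtie2 2.1.0; the step each tool did is not given in these sources. The deposited tables hold 1 value per gene symbol, taken as FPKM made by the authors; no header names the unit, which was inferred from Cufflinks and the range of values. Read counts were not used here, so depth is known only as the relative read numbers given above. No source gives the strandedness, so reads of a gene and of one that overlaps it, antisense ones included, cannot be separated.

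Groups were taken from the labels, which do not state whether replicate libraries are different mice. The p-values set group differences against the spread among these libraries. That spread may be technical, so the p-values may not extend to other mice. The test was limma 3.58.1 (R 4.3.3) on log2(FPKM + 1), in one fit of 4 group means with an intensity trend (8 residual degrees of freedom). A gene entered when 3 or more libraries had 1 FPKM or more, and p-values were adjusted by Benjamini-Hochberg over all 14059 of them for each comparison, with a threshold of 0.05. Differences are on this scale, where the changes of low genes are understated. Errors marked SE are the moderated ones of limma. The script was tested on simulated data.

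The members, the other pathway genes and the marker lists (granular, suprabasal, basal, hair follicle, sebaceous, adipocyte, macrophage, fibroblast, endothelial, muscle and cartilage) were chosen with earlier results of these data known. By rule, members that passed in any comparison are given in all libraries, the others by role with up to 2 per role by smallest unadjusted p, the 5 most abundant by name, and at most 6 other pathway genes per comparison by adjusted p. Members named outside this rule, as nearest to a threshold or lowest in level, were chosen after their values were seen. Alternatives were quantile normalization or median-of-ratios scaling, a 0.1 pseudocount, a 5 FPKM filter or none, array weights, the code run as a term, the first run alone, fits of only the groups compared, zeros of abundant genes set to missing, both WT_PBS replicate 3 and WT_untreated replicate 3 left out, and each library left out. Promoter windows were searched, and figures drawn, with Python 3.11.15 and matplotlib 3.10.9.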

Additional observations from a re-analysis of the deposited data

How the results depend on the processing

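Of the 11 calls of single members, none changed sign in any of 22 alternative settings, and the calls that were lost are named above. Calls of the other pathway genes and of the marker lists were not followed in these settings. For VDRcKO_Oxarol against WT_Oxarol, 4 members passed; the count was 1 with the code run as a term, 8 with array weights and 2 to 6 when 1 library was left out. For VDRcKO_Oxarol against WT_PBS, 7 passed; it was 11 when only those groups were fitted, 15 with array weights, and 3 to 11 when 1 library was left out. For WT_Oxarol against WT_PBS, 0 passed; it was 2 with array weights and 0 to 1 when 1 library was left out. For WT_PBS against WT_untreated it was 0 in every setting run. The cause of these moves was not tested. Counts over all genes moved too: for VDRcKO_Oxarol against WT_Oxarol, 1848 genes passed, 283 with the code run as a term and 3648 with array weights. For VDRcKO_Oxarol against WT_PBS, 2286 passed, with 611 and 5427 under these settings. There, 1514 were higher and 772 lower on the deposited scale, 968 and 1620 after quantile normalization, and 1037 and 1373 after median-of-ratios scaling. For WT_Oxarol against WT_PBS, 43 passed, with 0 when only those groups were fitted (1401 at an unadjusted p under 0.05), 8 in the first code run alone and 360 with array weights. The first code run holds no VDRcKO_Oxarol library, so that setting gave no value there. No paired analysis was possible because the replicate numbers follow the order of deposit and pair no libraries. With 3 libraries a group, standard errors of the members ran from 0.073 for Abhd5 to 0.40 for Degs2 on the log2 scale, so small changes of the variable members were not detectable.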
